A study of Rattus norvegicus with 8 samples.

Results

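Genes of lipoprotein uptake and sterol export were examined in rat ovary on one-colour Agilent arrays. The set holds 9 of the 26204 gene names on the array: the receptors Scarb1, Vldlr and Lrp8, the lipoprotein proteins Apoe and Lcat, and the transporters Abca1, Abcg1, Abcg5 and Abcg8. They were chosen for their roles in this pathway and were found by matching the gene name that the array design gives each probe. Scarb1 has 2 probes and the others have 1 each, which makes 10 probes.

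The arrays hold 4 control and 4 PMSG samples of whole ovary from female rats. Rats aged 26 days were given 50 IU of pregnant mare serum gonadotropin (PMSG) under the skin, dissolved in albumin phosphate buffer (0.2 ml), and control rats were given the same volume of buffer alone. Ovaries were taken 48 h after the first injection, at 28 days of age, and 500 ng of total RNA from each sample was primed with oligo-dT and labelled with Cy3. The strain is not given in the sources used here, and the labels do not say whether each array holds 1 animal or a pool, so the p-values measure only the spread between these samples.

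Values are log2 processed signals minus the 75th percentile of their array, so that 0 lies at that percentile, and they are compared only within a probe. The 75th percentile lay between 768.9 and 1103 signal units, between 80.8% and 84.6% of probes were well above background, and no spot was saturated. Several hormone-regulated genes differed between the labels in the direction opposite to the one generally known for gonadotropin stimulation of the immature ovary. Cyp11a1, Star and Lhcgr were lower in the arrays labelled PMSG, with log2 differences of -3.36, -2.75 and -1.93, and Amh was higher, with 3.03. The groups are therefore called arrays labelled control and arrays labelled PMSG, and each direction below rests on those labels. Of 25303 probes tested with limma, 34.2% differed between the labels at a Benjamini-Hochberg adjusted p under 0.05 (17.6% higher and 16.6% lower in the arrays labelled PMSG), the median difference was 0.11, and 36.6% of probes had values that did not overlap between the labels. Higher probes made up 51.4% of the calls, and 34.5% when arrays were centred on their median.

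Steroid-making cells of the ovary draw cholesterol from circulating lipoproteins. Scavenger receptor class B type I, encoded by Scarb1, takes up cholesteryl esters from high-density lipoprotein without internalising the particle, and is a main route of sterol supply in rodent ovary, whereas endocytic lipoprotein receptors internalise particles through apolipoproteins such as apolipoprotein E. In the other direction, ABC transporters pass sterols out of cells to apolipoproteins and lipoprotein particles, lecithin-cholesterol acyltransferase esterifies the cholesterol on those particles, and liver X receptors, which sense oxysterols, raise transcription of several of the exporters.

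Among the 8 members that could be tested, Scarb1 fell, Apoe, Abca1, Abcg1 and Abcg5 rose, and Vldlr, Lrp8 and Lcat did not pass the test. Against the 34.2% of all tested probes, 5 of 8 members passed, 4 higher and 1 lower, where 17.6% and 16.6% of all tested probes did. The same 5 had groups that did not overlap, against 36.6% of all tested probes. Abcg5 entered the test only through the arrays labelled PMSG, where it is bright, and so was bound to differ. Abcg8 was not well above background on any array and was not tested.

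**Figure D1:**
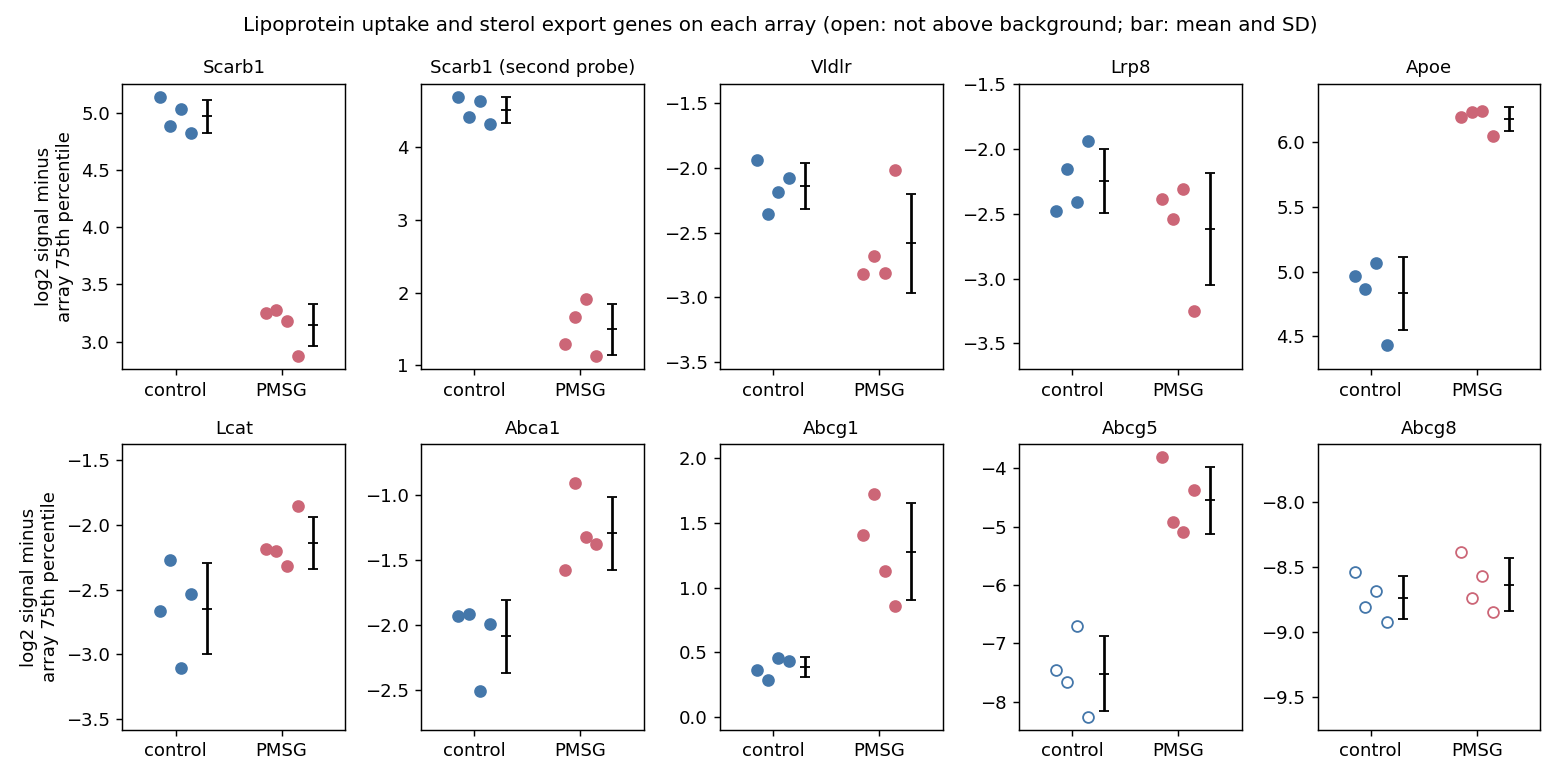
Each point is 1 array, for the 10 probes of the 9 genes, as log2 signal minus the array's 75th percentile (vertical axis) in the 4 arrays labelled control and the 4 labelled PMSG; bars give the mean and SD, and open points mark groups in which no array was well above background. The vertical axes differ between panels. Both Scarb1 probes are lower and Apoe, Abca1, Abcg1 and Abcg5 higher in every array labelled PMSG than in any labelled control, while Vldlr, Lrp8 and Lcat overlap and Abcg8 is at background throughout.

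Scarb1, the high-density lipoprotein receptor, was the member that fell, and both of its probes showed it. The probes lie on chromosome 12 of the rn4 build, at chr12:32457588-32457647 (starting at base 2403 of the transcript) and chr12:32453915-32453974 (starting at base 1671). Whether they lie in coding or untranslated exons is not stated in the files. The first 30 of the 60 bases of each are shown because the probes gave differences of unequal size, with the letters in lower case throughout.
Scarb1 probe from base 2403: ctactggaagagaaattttatcgtcttttg
Scarb1 probe from base 1671: ctctgagtctctgatgtcaccagctgccaa
The brighter probe, from base 2403, read 5.15, 4.89, 5.03 and 4.83 in arrays labelled control and 3.25, 3.27, 3.18 and 2.87 in arrays labelled PMSG. The lowest control value was above the highest PMSG value by far more than the spread within either label. The means were 4.97 ± 0.14 and 3.14 ± 0.18 (SD, n = 4 each), a log2 difference of -1.83 (SE 0.13, 95% interval -2.12 to -1.54), or 3.55-fold lower, with a limma adjusted p of 7.51e-05. Of all tested probes, 1.29% fell by as much.

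The probe from base 1671 read 4.70, 4.42, 4.63 and 4.32 in arrays labelled control and 1.30, 1.66, 1.91 and 1.13 in arrays labelled PMSG. Again every array labelled PMSG lay below every array labelled control. Its difference was -3.02 (SE 0.19, limma adjusted p = 4.92e-05), or 8.12-fold lower, and its 2 spots on each array differed by at most 0.08. The gap between the 2 probes on an array was -0.51 to -0.40 in arrays labelled control and -1.95 to -1.28 in arrays labelled PMSG, so the probe from base 1671 fell further by 1.19 on the log2 scale. An exact two-sided permutation test over the 8 arrays gave p = 0.0286, the smallest these numbers allow, for a comparison chosen after the values had been seen. The size of the Scarb1 difference therefore depends on the probe, and its direction does not. The GC content of the full probes is 33.3% from base 2403 and 55.0% from base 1671.

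In whole ovary, fewer cells of a type and less RNA per cell cannot be told apart. All 5 luteal markers measured fell, where 16.6% of all tested probes did. Their summed level was 9.81 to 12.5 in arrays labelled control and 0.51 to 0.84 in arrays labelled PMSG. Such sums are given as linear signal in units of the array's 75th percentile. One of the 5, the prostaglandin F receptor gene Ptgfr, entered the test only through the arrays labelled control. Its PMSG values are only background readings, so it was bound to differ. The brightest luteal probe in arrays labelled control was 1 of 3 for Runx2, with a mean of 2.77 and a difference of -5.33. The other Runx2 probes gave only -0.36 and -0.66, so the size of the summed drop depends on the Runx2 probe used. Akr1c18, the next brightest, gave -8.47 and -8.68 with its 2 probes. The first of these was above background on only 1 array labelled PMSG, so its size is measured largely against background readings. Of 6 theca and interstitial markers, 3 fell (Star, Cyp11a1 and Lhcgr) and 1 rose (Insl3, by 2.60). Cyp17a1 and Hsd3b1, with differences of -0.22 and 0.07, did not pass the test. The sum of all 6 was 273 to 309 in arrays labelled control and 134 to 216 in arrays labelled PMSG. Hsd3b1, with mean log2 levels of 6.97 and 7.04, was the largest part of it under both labels. Of 6 granulosa markers, 2 rose and 1 fell, and their sums, 79.3 to 136 and 72.2 to 98.9, overlapped. Of 8 endothelial markers, 4 fell and 1 rose, with sums of 21.0 to 24.5 (control) and 17.1 to 18.6 (PMSG). Kdr, with mean log2 levels of 4.16 and 3.73, made up most of that sum under both labels. The part of these cell types in the Scarb1 difference was not tested.

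Profiles near that of Scarb1 over the 8 arrays were sought after each probe's own mean was removed, among 22943 probes above background on every array. Members, genes of the lists described below and names starting with LOC or RGD were left out, so a listed gene may lie nearer. The nearest of the remaining named genes were Htatip2, Col20a1, Acat3, Fkbp5 and Dhcr7. Their Euclidean distances were 0.20, 0.29, 0.29, 0.35 and 0.35 log2 units. Their log2 differences were -1.77, -1.79, -1.93, -1.75 and -1.65, which is what the choice of near profiles selects. Dhcr7 encodes the enzyme of the last step of cholesterol synthesis, Acat3 belongs to the acetyl-CoA acetyltransferases and Fkbp5 encodes a co-chaperone of steroid receptors. The other Scarb1 probe lay at a distance of 1.76. Its larger fall enters this distance, and the named genes were chosen for being near, so the 2 readings are not a further comparison.

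Vldlr, the receptor for very-low-density lipoprotein, did not pass the test. Its probe maps to chr1:230694104-230695049 (rn4), an interval of 946 bases for a 60-base probe, and it read -1.94, -2.35, -2.19 and -2.08 in arrays labelled control and -2.82, -2.68, -2.81 and -2.02 in arrays labelled PMSG. PMSG arrays 1 to 3 lay below every control array, and PMSG array 4 lay within the control range. The difference was -0.44 (SE 0.20, 95% interval -0.89 to 0.01, limma adjusted p = 0.115). Without PMSG array 4 it was -0.63 with an adjusted p of 0.00606, so the call turned on that array, and it was -0.55 with an adjusted p of 0.0230 when limma weighted the arrays by quality.

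Lrp8, also called apolipoprotein E receptor 2, binds apolipoprotein E and, like Vldlr, the signalling protein reelin. Its probe at chr5:128962602-128962661 (rn4) read -2.48, -2.16, -2.41 and -1.94 in arrays labelled control and -2.38, -2.54, -2.31 and -3.25 in arrays labelled PMSG. The groups overlapped, and the lowest value was PMSG array 4, which was the highest of the PMSG arrays for Vldlr. The difference was -0.37 (SE 0.23, 95% interval -0.89 to 0.15, limma adjusted p = 0.232) and passed the test under none of the 21 alternative settings.

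The differences of these 2 receptors between labels were set against each other within each array. They differed by -0.07 (Vldlr minus Lrp8), with an exact two-sided permutation p of 0.914, 0.914 after adjustment over the 2 pairs tested. The gap between the receptors ran from -0.20 to 0.54 on arrays labelled control and from -0.51 to 1.23 on arrays labelled PMSG, so arrays labelled PMSG alone spanned more than arrays labelled control.

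Apoe rose. Apolipoprotein E is the ligand through which lipoprotein particles bind endocytic receptors, and it also accepts exported cholesterol. Its probe at chr1:79003795-79003854 (rn4) read 4.96, 4.87, 5.07 and 4.43 in arrays labelled control and 6.20, 6.23, 6.24 and 6.04 in arrays labelled PMSG. The groups did not overlap, and the arrays labelled PMSG lay within a narrow band, with an SD of 0.09 against 0.28 in the control arrays. The difference was 1.35 (SE 0.15, 95% interval 1.01 to 1.68, limma adjusted p = 0.000417), or 2.54-fold higher, and 4.28% of tested probes rose by as much.

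Lcat, the plasma enzyme that esterifies cholesterol on high-density lipoprotein, did not pass the test. It read -2.67, -2.27, -3.11 and -2.54 in arrays labelled control and -2.19, -2.20, -2.32 and -1.85 in arrays labelled PMSG, from a probe at chr19:35781616-35781674 (rn4). The ranges overlapped through control array 2, which lay above PMSG array 3. The difference was 0.51 (SE 0.19, 95% interval 0.07 to 0.94), with a limma adjusted p of 0.0694. Without control array 2 it was 0.63 with an adjusted p of 0.0403, and with normexp background correction 0.40 with an adjusted p of 0.0346.

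Abca1, which loads cholesterol and phospholipid onto lipid-poor apolipoproteins, rose. Its probe at chr5:70493613-70493672 (rn4) read -1.93, -1.92, -2.51 and -1.99 in arrays labelled control and -1.57, -0.90, -1.32 and -1.37 in arrays labelled PMSG. The groups did not overlap, and control array 3 stood below the other 3. The difference was 0.79 (SE 0.19, 95% interval 0.37 to 1.22, limma adjusted p = 0.0124), or 1.73-fold higher. When arrays were centred on their median in place of the 75th percentile, the difference was 0.63 with an adjusted p of 0.0591, and the call was lost.

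The Abca1 promoter is a textbook target of liver X receptors, which bind a direct repeat of a nuclear receptor half-site with 4 bases between its copies. The 250 bases before the Abca1 start (RefSeq, GRCr8, chr5:72596474-72596723, minus strand) are shown for this reason, with capitals for a GC box, GGGCGG, and for an imperfect repeat.
Abca1 upstream: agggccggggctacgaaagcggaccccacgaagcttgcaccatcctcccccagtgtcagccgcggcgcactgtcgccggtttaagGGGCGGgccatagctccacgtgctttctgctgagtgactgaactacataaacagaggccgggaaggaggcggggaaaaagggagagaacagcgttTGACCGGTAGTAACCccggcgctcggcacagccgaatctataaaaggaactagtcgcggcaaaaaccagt
The second stretch reads, on the opposite strand, GGTTA, 5 further bases and GGTCA. It was searched for after the promoters had been read, on both strands of windows from 250 bases before to 50 after each start, and 0.0538% of 33469 windows hold it. The strict repeat of AGGTCA with 4 bases between was in 0.00598% of windows and in none of the 6 members that the table holds (Apoe, Vldlr, Abca1, Abcg5, Abcg8 and Lcat). The half-site AGGTCA, in 16.2% of windows, and a strict sterol regulatory element, in 0.125%, were also in none of the 6. The relaxed form TCACNCCAC (1.12% of windows) and the steroidogenic factor 1 site CAAGGTCA (1.52%), which overlaps the half-site, were likewise absent from these windows. The GC box, in 33.1% of windows, was in those of Abca1, Apoe and Vldlr.

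Abcg1, which moves cholesterol onto mature high-density lipoprotein, rose as well. Its probe at chr20:9459359-9459418 (rn4) read 0.36, 0.28, 0.46 and 0.44 in arrays labelled control and 1.40, 1.72, 1.13 and 0.86 in arrays labelled PMSG. The control arrays were close together, with an SD of 0.08, and every array labelled PMSG was above them, though spread more widely, with an SD of 0.37. The difference was 0.89 (SE 0.18, 95% interval 0.48 to 1.31, limma adjusted p = 0.00624), or 1.86-fold higher.

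Set against each other within arrays, the differences of Abca1 and Abcg1 were 0.10 apart on the log2 scale, with Abca1 the smaller (-0.10, exact two-sided permutation p = 0.629, adjusted p = 0.914 over the 2 pairs). The within-array gap ranged from -2.97 to -2.20 in arrays labelled control and from -2.98 to -2.23 in arrays labelled PMSG, almost the same range. Macrophages express Apoe, Abca1 and Abcg1 strongly, and 4 of 12 macrophage and leukocyte markers (Ptprc, Aif1, Cd68 and Laptm5) rose and 0 fell, a share near the 34.2% of all tested probes. Among the other 8, Cd14, Cd163 and Mrc1 had differences of -0.29, -0.54 and -0.36. Their summed level was 26.5 to 32.0 in arrays labelled control and 31.8 to 37.5 in arrays labelled PMSG, ranges that overlapped slightly. The part of these cells in the 3 differences was not tested.

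Abcg5 and Abcg8 encode partners of a heterodimer that exports cholesterol and plant sterols, chiefly in liver and intestine, and the genes stand head to head around a shared promoter. They gave unlike readings. The first 30 bases of each 60-base probe and the bases between the start sites are shown for this pair.
Abcg5 probe: tttaaagtccgggactacctgattagcaga
Abcg8 probe: cctgaggctgcagcttgcagactcttgatc
Between the Abcg8 and Abcg5 starts: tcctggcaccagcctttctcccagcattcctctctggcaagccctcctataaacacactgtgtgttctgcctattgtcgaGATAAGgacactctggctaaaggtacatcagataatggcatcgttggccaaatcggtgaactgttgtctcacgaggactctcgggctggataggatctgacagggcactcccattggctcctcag
The intergenic stretch is 205 bases long (RefSeq, GRCr8, chr6:15717731-15717935, plus strand). Capitals mark a GATA site, GATAAG, chosen after the promoters had been read and present in 7.05% of windows, including those of Abcg5, Abcg8 and Lcat.

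The Abcg5 probe, at chr6:8028067-8028126 (rn4), was well above background on 0 of 4 arrays labelled control and on 4 of 4 labelled PMSG. It read -7.46, -7.66, -6.70 and -8.26 in arrays labelled control and -3.81, -4.92, -5.10 and -4.38 in arrays labelled PMSG. Every array labelled PMSG was higher, and the control values are only background readings. Against the lowest signals that counted as above background on each control array, arrays labelled PMSG were at least 3.85-fold higher for Abcg5. The limma adjusted p of 0.000768 belongs to the measured difference of 2.97 from those background readings, not to this bound. The raw signals there were 22.5 to 69.9 units, and the 2 spots of an array differed by up to 1.23 on the log2 scale, more than for any other member probe with 2 spots. With normexp background correction the difference was 0.78. That correction adds an offset of 50 units to each signal, which shrinks the log2 differences of dim probes.

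The Abcg8 probe, at chr6:8083212-8083271 (rn4) and starting at base 4769 of its transcript, was well above background on 0 of 8 arrays. Its values were -8.92 to -8.54 in arrays labelled control and -8.85 to -8.39 in arrays labelled PMSG. These are background readings with no order, so the comparison of Abcg5 with Abcg8 could not be made. Liver cells, which express both genes, were followed through 7 hepatocyte markers, of which 2 rose and 1 fell. Tf and Serpina1 rose, by 0.49 and 0.76, and Ttr fell by 3.24. The sum of all 7 was 7.98 to 11.3 in arrays labelled control and 12.1 to 13.7 in arrays labelled PMSG. Tf, with mean log2 levels of 3.13 and 3.63, made up most of that sum under both labels. Albumin was above background on 3 and 4 arrays. All 6 oviduct epithelium markers measured rose, with sums of 13.7 to 18.6 (control) and 26.6 to 39.2 (PMSG). Krt18, with mean log2 levels of 3.78 and 4.46, made up most of that sum under both labels. All 8 oocyte markers rose, with sums of 3.63 to 6.47 and 13.1 to 26.6. Among all tested probes, 17.6% were higher. Of 9 adipocyte markers 2 rose and 0 fell, with overlapping sums of 6.39 to 48.5 and 19.8 to 54.1. The part of these tissues in the Abcg5 and Apoe readings was not tested.

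**Figure D2:**
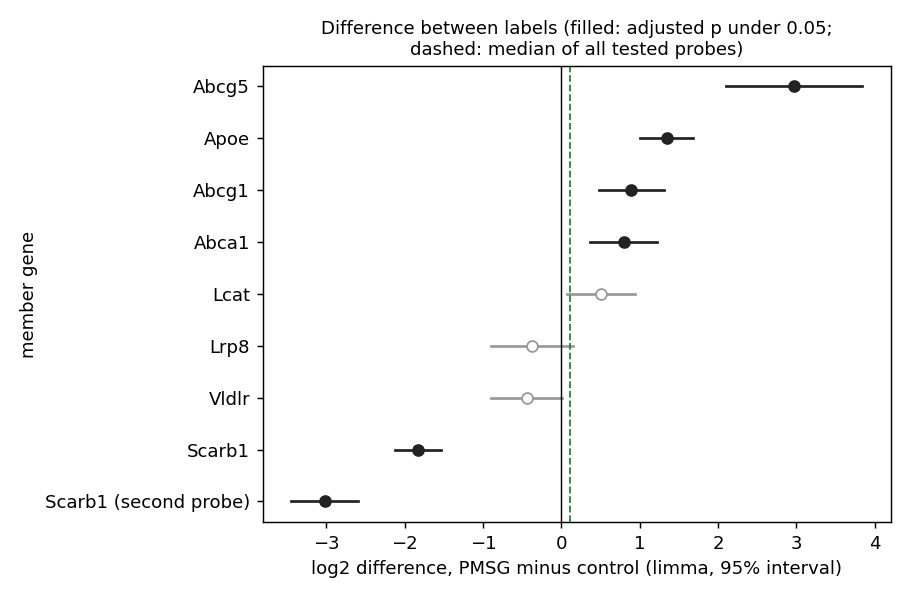
Log2 difference between the labels (horizontal axis, arrays labelled PMSG minus control, limma, with 95% intervals) for each tested member probe; filled points have an adjusted p under 0.05, and the dashed line is the median of all tested probes, 0.11. Scarb1 lies at -1.83 and -3.02, the transporters and Apoe lie between 0.79 and 2.97, and the intervals of Vldlr and Lrp8 include 0.

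The 8 arrays lay on 1 slide, in 2 rows that each held 2 arrays of each label. The Scarb1 difference was -1.63 in slide row 1 and -2.03 in row 2, Apoe 1.58 and 1.11, Abca1 0.84 and 0.75, and Abcg1 1.07 and 0.72. Each of these 4 thus kept its direction in both rows. Vldlr gave -0.53 and -0.36, Lrp8 -0.37 and -0.37, and Lcat 0.15 and 0.87. With the slide row as a block, 5 members passed, as without it.

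The other receptors of lipoprotein uptake did not move in 1 direction. Of 19 receptors and adaptors tested, 8 passed (3 higher and 5 lower), against 34.2% of all probes, with a median difference of 0.00 beside 0.11 for all tested probes. Olr1, a scavenger receptor for oxidised lipoprotein, fell by 1.57 (limma adjusted p = 0.00178), and Scarb2, a lysosomal relative of Scarb1, fell by 0.85 (adjusted p = 0.000556); both were named after their values had been seen. Sorl1, a sorting receptor, rose by 0.87 with 1 probe and 1.77 with the other, and Lrpap1, a chaperone of endocytic lipoprotein receptors, rose by 0.59 (adjusted p = 0.00157).

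Of 17 other apolipoproteins and lipoprotein enzymes tested, 10 passed, 8 higher and 2 lower, against 17.6% and 16.6% of all tested probes, with a median difference of 0.72. Lipc, among the higher genes, cleared the background on 3 of the control arrays and on all 4 PMSG arrays. Pla2g7, a lipoprotein-associated phospholipase, rose by 1.92 (limma adjusted p = 0.000648). Clu, or apolipoprotein J, rose by 1.56 (adjusted p = 7.88e-05). Lipg, endothelial lipase, and Apoa1, the main protein of high-density lipoprotein and acceptor for Abca1, fell by 2.29 and 2.27 (adjusted p = 0.000171 and 0.000669). With normexp background correction, whose offset shrinks the differences of dim probes, the Apoa1 difference was -0.98 (limma adjusted p = 0.00385). Apoc1, encoded next to Apoe, rose by 1.38, and Pltp, the phospholipid transfer protein, by 1.47; this pair was named after the values had been seen. Apof, Apoh and Mttp were well above background on fewer than 4 of the 8 arrays and were not tested.

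Sterol export and endosomal sterol transport beyond the members gave 7 of 19 genes past the test, a share near the 34.2% of all tested probes, 1 higher and 6 lower, with a median of -0.09. The transporter Abca2 rose by 0.74 (limma adjusted p = 0.00296). Stard4, which carries cholesterol between membranes, fell by 1.84 and 2.04 with its 2 probes (adjusted p = 2.32e-05 for the first), and Ch25h, which makes 25-hydroxycholesterol, fell by 1.59 (adjusted p = 7.86e-05). The other genes that fell were Gramd1b by 1.06, Npc2 by 0.60, Npc1 by 0.50 and Cyp27a1 by 0.50, named here after their values were seen. Npc1 and Npc2 move cholesterol out of late endosomes. Abca5, Abca9, Abcb11 and Npc1l1 were not well above background on 4 of 4 arrays of either label and were not tested; Abca5 was so on 3 arrays labelled control and 0 labelled PMSG.

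A list of 17 genes covered liver X receptors, their partners and targets. It also held other nuclear receptors, Nr1h4, Ppara, Pparg and Ppard, none of which passed the test. Of the 17, 7 passed, 5 higher and 2 lower, against 34.2% of all tested probes, with a median of 0.26. Mylip, whose product marks Vldlr and Lrp8 for degradation, rose by 1.91 (SE 0.17, limma adjusted p = 0.000200) and by 1.72 with its other probe. It read -0.71, -0.64, -0.56 and -0.69 in arrays labelled control and 1.52, 1.56, 0.82 and 1.14 in arrays labelled PMSG, so every array labelled PMSG was higher. Rxrb, a partner receptor, rose by 0.75 (adjusted p = 0.00134). Lpcat3, a phospholipid-remodelling enzyme, and Nr0b2, a repressor nuclear receptor, fell by 1.86 and 1.31 (adjusted p = 9.75e-05 and 0.0112). Srebf1, a further target, had a difference of -0.32 (adjusted p = 0.0739), and Nr1h3, the liver X receptor alpha gene, one of 0.64 (adjusted p = 0.0451); both were named after their values were seen.

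Since Vldlr and Lrp8 are also the receptors of reelin, 7 genes of that pathway were read. Of these, 4 passed, 2 higher and 2 lower, against 34.2% of all tested probes, with a median of -0.23. The higher ones include Dab1, which entered the test only through the arrays labelled PMSG and was bound to differ. Pafah1b1 and Fyn fell by 0.70 and 0.38 (limma adjusted p = 0.00106 and 0.0223), though the other Pafah1b1 probe gave -0.06. Fyn missed the threshold when PMSG array 1 was left out, or 1 of control arrays 2 and 4, with differences of -0.33, -0.36 and -0.36 (adjusted p = 0.0576, 0.0662 and 0.0643). Reln, the ligand, rose by 0.61 (adjusted p = 0.0303), a call lost with quantile normalization (0.37, adjusted p = 0.287), with median centring (0.45, adjusted p = 0.165) and without any of 5 single arrays, control arrays 1, 2 and 4 and PMSG arrays 2 and 4 (0.49 to 0.66). The adaptor gene Dab1 was above background only in arrays labelled PMSG and exceeded the control bound by at least 1.28-fold. However, normexp, whose offset shrinks the differences of dim probes, gave 0.30 (limma adjusted p = 0.0518). The authors' deposited values gave -0.15 (limma adjusted p = 0.802).

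**Figure D3:**
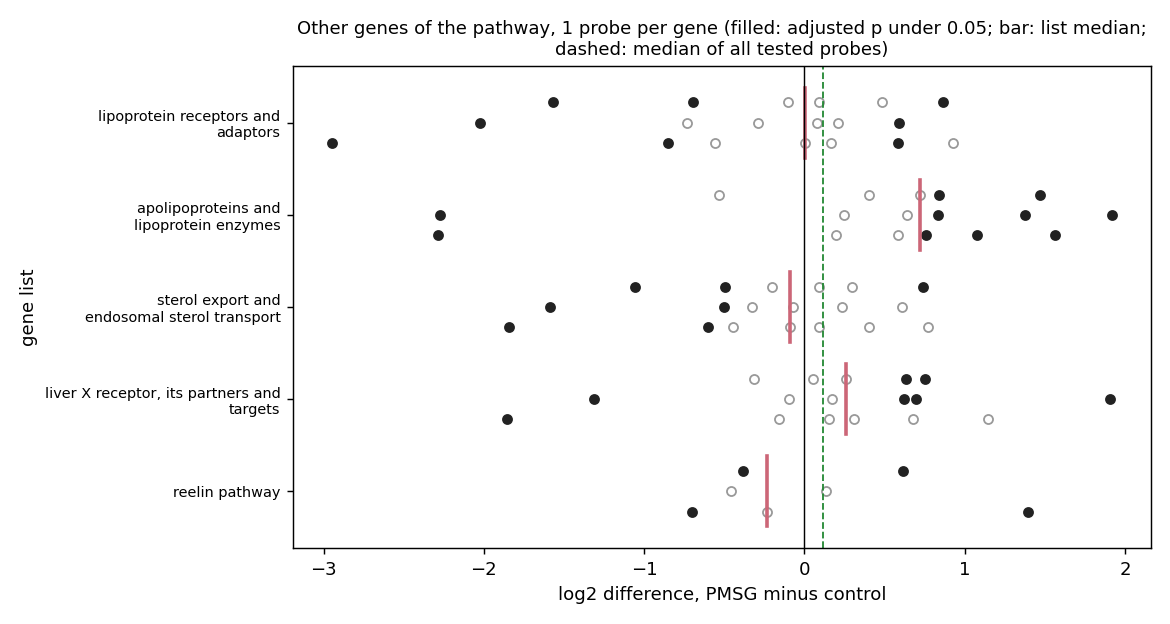
Each point is 1 gene of the 5 lists, by its brightest tested probe, with its log2 difference between the labels on the horizontal axis; filled points have an adjusted p under 0.05, the bar is the list's median and the dashed line the median of all tested probes, 0.11. Medians are 0.00 for receptors, 0.72 for apolipoproteins and enzymes, -0.09 for sterol export, 0.26 for the liver X receptor list and -0.23 for the reelin pathway.

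**Figure D4:**
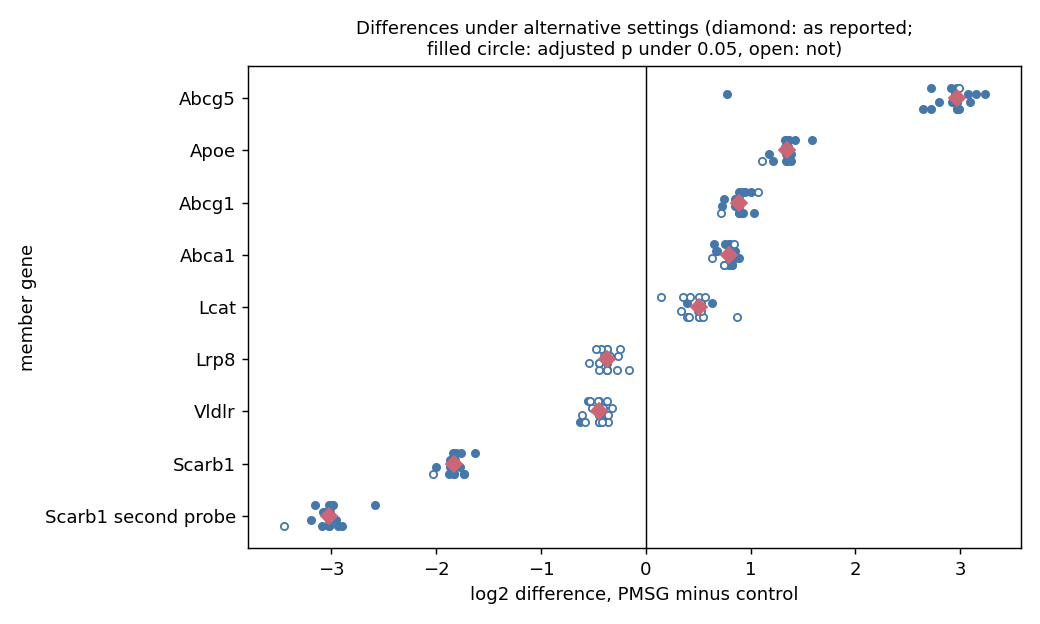
Log2 difference between the labels (horizontal axis) of each tested member probe as reported (diamond) and under every alternative setting (circles, filled where the adjusted p was under 0.05), including arrays left out in turn and values within a slide row. No tested member crosses 0 under these settings. Abcg5 falls from 2.97 to 0.78 with normexp background correction, whose offset shrinks the differences of dim probes.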

How the data were processed

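Agilent Feature Extraction 11.5.1.1, per the file headers, gave the deposited intensity of each spot (processed signal, 1 colour), on probes annotated to rn4. The authors' deposited table holds log2 values; set against the scanner files, they are log2 signals minus the array's 75th percentile (r of at least 0.998 with the same array), a scale and direction that this comparison settled. Here outlier spots were left out, spots of a probe averaged, log2 taken and the 75th percentile of each array subtracted. Probes well above background on at least 4 of the 8 arrays, in any mix of labels, were tested (25303). The test was limma 3.58.1 in R 4.3.3 (lmFit, eBayes, Benjamini-Hochberg over all), which was first tested on simulated data. Each gene is read by its brightest probe. Pairs of members were compared by exact permutation of the 8 arrays. Members and lists were chosen with earlier results of these data known.

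All members are named. From each list, those genes past the threshold that rose most (2) or fell most (2) are named. So are the 5 genes nearest to Scarb1 outside the members and lists. Some genes that this rule selects are not reported here. Alternatives were quantile normalization, median centring, normexp (offset 50), the deposited values, other filters on dim probes, outlier spots kept, array weights, a variance trend, blocks and arrays left out. The number of arrays limits the precision. Stab1, Abca6, Abca8a and the markers Cyp19a1 and Ovgp1 matched no gene name and were not analysed here. Arl4c was read through the name Arl4c-ps1 and the marker Akr1c18 through the name Akr1c3. The replicate numbers are not stated to pair the arrays, so pairing was used only as an alternative. The comparison of the Scarb1 probes, the GATA site and the imperfect repeat were added after the data had been seen.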

Additional observations from a re-analysis of the deposited data

Results flagged for a closer look

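In 3 of 58 groups of 4 arrays, 1 array stood apart from the others by more than Dixon's 95% critical value; chance flags about 1 group in 20, or 2.9 here. Abca1 was lowest in control array 3 (-2.51, the others -1.99 to -1.92), a gap of 0.869 of the range; without that array the difference between the labels was 0.65, with a limma adjusted p of 0.0243. Lrpap1 was also lowest in control array 3 (-1.09, the others -0.998 to -0.983), a gap of 0.859. Rxrb was highest in control array 2 (0.04, the others -0.22 to -0.19), a gap of 0.873.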

How the results depend on the processing

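No tested member changed sign under any alternative, and 4 to 6 of 8 passed outside the single slide rows (4 of 7 where all 8 arrays had to be above background). Within rows, with 2 arrays against 2, limma called 3 members in row 1 and 0 in row 2, where 0 of 25303 probes passed although 6015, and 5 members, had an unadjusted p under 0.05. Called genes in rows 1 and 2 were 4 and 0 for receptors, 4 and 0 for the liver X receptor list, 2 and 0 for the reelin list, and 0 in row 2 for apolipoproteins and for sterol export. Leaving out single arrays gave 5 to 6 members, and 7 to 10 receptors, 7 to 12 apolipoproteins and enzymes, 5 to 10 sterol export genes, 5 to 9 of the liver X receptor list and 2 to 4 reelin genes (2 without control array 2 or 4). Differences between pairs turned for Vldlr minus Lrp8 (0.0154 in row 2; -0.47 to 0.11 with single arrays left out, above 0 without control array 1, 0.07, PMSG array 1, 0.09, or PMSG array 3, 0.11) and for Abca1 minus Abcg1 (0.0288 in row 2; -0.26 to 0.0379, above 0 without PMSG array 1). Dab1 turned to -0.15 in the deposited values; the cause was not tested. Arrays with the same replicate number correlated by 0.04, 0.04, 0.18 and -0.02 in their deviations. Arrays with unlike numbers were not compared in this way, so these values cannot exclude a pairing. With the replicate block 5 members and 7346 of 25303 probes passed, against 8658 without it. The median of all probes was 0.11, 0.03 with quantile normalization and -0.05 with median centring. Signals near background limit Abcg5 and Abcg8.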
